A study of Mus musculus with 2 samples.

Results

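The genes of antigen presentation by the major histocompatibility complex (MHC, called H2 in the mouse) were followed in the colon of mice with and without the epithelial oxygen-sensing transcription factor HIF-2α. Members were taken by name: every gene whose symbol starts with H2-, and 16 further genes of the class I and class II pathways. This gave 39 genes, read by 80 probe sets, of 18193 genes with a single symbol on the array. They fall into 3 classical and 12 non-classical class I heavy chain genes, 9 genes of the class I light chain, its loading and its regulation, 5 class II chain genes, 7 genes of class II loading and regulation, 2 co-stimulatory ligands and H2-Ke6, a metabolic enzyme gene of the H2 region that presents no antigen.

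Class I molecules show peptides made in the cytosol to CD8 T cells and are carried by nearly all nucleated cells: the transporter TAP brings peptides into the endoplasmic reticulum, where tapasin, calreticulin and PDIA3 hold the heavy chain and β2-microglobulin until a peptide binds. Class II molecules show peptides from endosomes to CD4 T cells and are made mainly by B cells, macrophages and dendritic cells, and by gut epithelium under interferon-γ. Non-classical class I molecules are less variable and include ligands of innate-like T cells.

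Colon mucosal scrapings of C57BL/6 mice were profiled after 3 days of 3% dextran sulfate sodium (DSS), an agent that injures the colonic mucosa. One array came from Hif-2αF/F mice, which carry the conditional alleles of Epas1 (the HIF-2α gene), and the other from Hif-2αΔIE mice, read from knowledge of the model as lacking it in the intestinal epithelium; both groups received DSS. The labels give an age of 6 to 8 weeks and the design text 7 weeks, with 6 F/F and 5 ΔIE mice; whether animals were pooled and which promoter drives Cre was not given in the sources used here. With 1 array per genotype there is no replicate check and no test: each difference is the ΔIE log2 value minus that of F/F and compares these 2 arrays. The 4 control probe sets for Cre recombinase read 2.92 to 4.22 in F/F and 7.86 to 10.01 in ΔIE, on the side the labels give. The other control probe sets of the array were not compared, so the source of this signal was not tested. The brighter Epas1 probe set differed by -0.13, and the dimmer, at 6.98 and 7.15, was higher in ΔIE by 0.16. Neither Epas1 probe set thus showed a clear loss in this bulk tissue. The arrays correlated at r = 0.96 across the 11593 genes kept, and a gene was kept where its mean of both arrays reached 6.11, the median of all probe sets. The epithelial markers Epcam (13.80 in F/F, 13.89 in ΔIE) and Cdh1 (12.25 and 12.02) were bright on both arrays, so that the labelled tissue carried its defining markers.

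Class II genes were lower on the ΔIE array, whereas the class I genes centred near 0. Over all members measured, the 12 class II genes had a median difference of -0.82 and the 24 class I genes a median of 0.02, beside 0.04 over all genes measured. Of the 12 class II genes 11 were below 0, against 12 of 24 class I genes and 42.4% of all genes measured. The class II differences ran from -2.18 to 0.04 and the class I differences from -0.88 to 1.09, so that the ranges overlapped although the centres lay apart. Over all 39 members, 14 were above 0, where 54.9% of all genes measured were. Of the 39, 31 passed the filter, among them all 12 class II genes but only 17 of 24 class I genes. Of these 31, 22 were below 0 and 9 above, beside 46.1% and 53.1% of all genes kept.

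**Figure D1:**
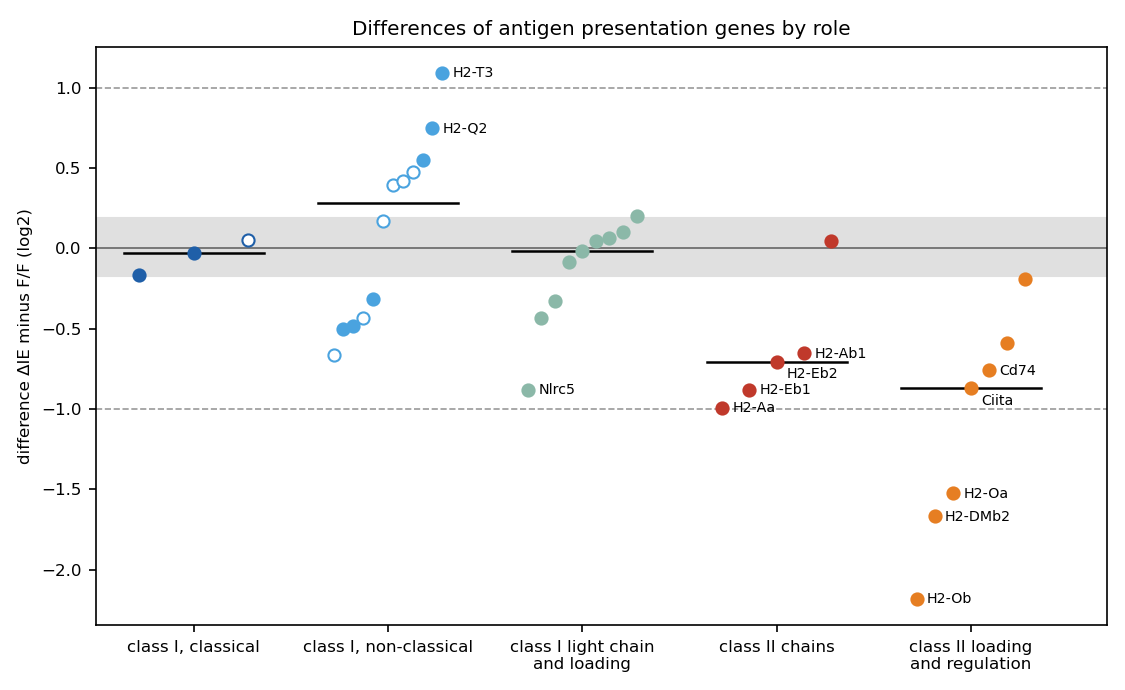
Difference between the arrays (ΔIE minus F/F, log2) for each class I and class II gene by role; filled points passed the filter, open points did not, black lines are medians over all points of a role, the grey band runs between the quartiles of all genes kept (-0.17 and 0.19) and dashed lines mark 2-fold. Class II loading genes reach -2.18 (H2-Ob), and the non-classical class I genes spread from -0.66 to 1.09.

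At a threshold of 2-fold, 4 of the 31 members kept were lower (H2-Ob, H2-DMb2, H2-Oa and Cd86), where 4.92% of the 11593 genes kept were. One member, H2-T3, was at least 2-fold higher, where 1.11% of genes kept were. At 1.5-fold, 12 members were lower and 2 higher, beside 9.96% and 4.29% of all genes kept. Of the 12, 10 were class II genes, and the others were Nlrc5 and Cd86. The 2 higher ones were H2-T3 and H2-Q2, both non-classical class I genes. Without the filter, 4 of 39 members were at least 2-fold lower and 1 higher, beside 3.72% and 0.797% of all genes measured. At 1.5-fold 13 were lower, Mr1 being the addition, and 2 higher, beside 7.84% and 3.3%.

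**Figure D2:**
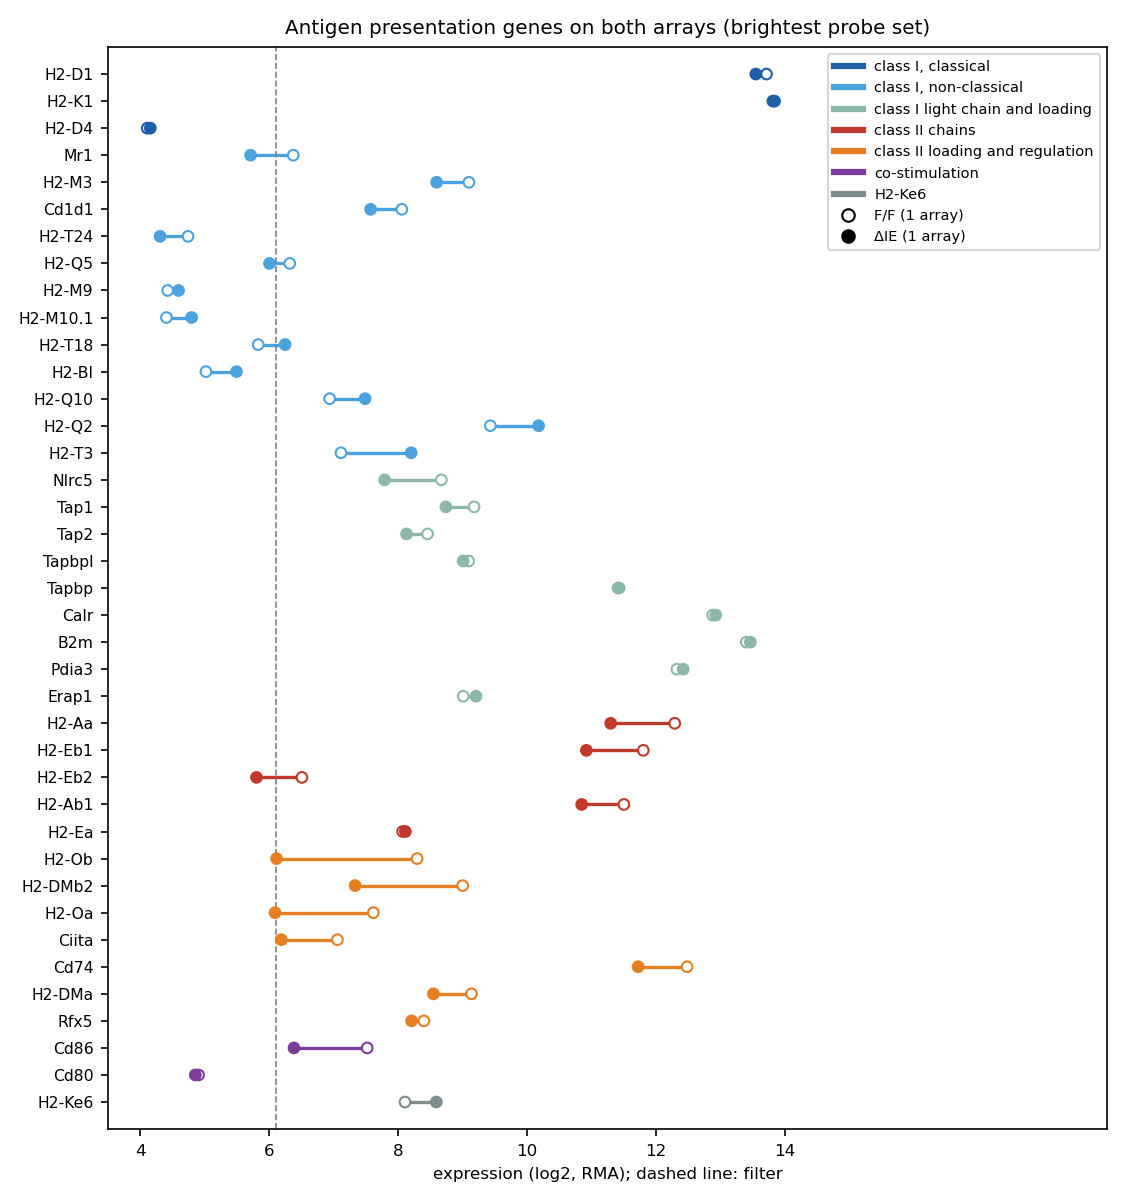
Level of each member on the F/F array (open circle) and the ΔIE array (filled circle) by its brightest probe set, in log2 expression; 1 array per genotype, the dashed line is the filter at 6.11. The classical class I genes H2-K1 and H2-D1 and the light chain B2m sit near the top of the scale with circles that touch or nearly touch, while the class II circles lie apart except those of H2-Ea and Rfx5.

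The class II chains form the peptide groove. H2-Aa, the α chain of I-A, read 12.29 for F/F against 11.30 for ΔIE, a 1.99-fold difference. Only 4.95% of genes kept, taken over all levels, lay lower. Its partner H2-Ab1 read 11.50 and 10.85 (1.57-fold), and H2-Eb1, the β chain of I-E, 11.80 and 10.92 (1.84-fold). The more distant chain gene H2-Eb2 read 6.51 and 5.80, its ΔIE value falling under the filter. These 4 genes were thus lower by 1.57-fold to 1.99-fold. Further probe sets above the filter gave like values: the 3 for H2-Aa differed by -1.02 to -0.94 and the 3 for H2-Ab1 by -0.84 to -0.65. A further H2-Aa probe set, with a mean below the filter, read 6.74 for F/F against 5.18 for ΔIE, a larger difference of -1.56. H2-Ea was the exception, at 8.07 for F/F against 8.11 for ΔIE. RefSeq lists it as a transcribed pseudogene, and C57BL/6 mice are known to make no Eα chain.

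In this bulk tissue, fewer cells of a type and less RNA per cell cannot be told apart. Cell type markers were therefore read on the same arrays, where 42.4% of all genes measured were lower in ΔIE. All 11 B cell markers matched of 12 were lower, with a median of -1.67, and their summed unlogged level was 3679 in F/F and 1021 in ΔIE. The B cell antigen gene Ms4a1 read 10.06 and 7.38, and the complement receptor gene Cr2 7.17 and 5.02, with a mean just below the filter. RMA values have no 0, so no marker reads as absent. All 12 macrophage and monocyte markers were lower too, with a median of -1.12 and sums of 17904 and 8362; Csf1r read 11.37 and 10.40, Adgre1 7.60 and 6.96, and the largest differences were those of Itgam (-1.48, its ΔIE value under the filter) and Ccr2 (-1.43). Of 9 dendritic cell markers matched of 10, 8 were lower, with a median of -0.27 and sums of 893 and 676. Only 3 of the 9 passed the filter, with a median of -0.32, while all 12 macrophage and monocyte markers did. Itgax read 8.12 and 7.33, Flt3 6.87 and 6.55, and Ccr7 6.55 and 5.54, with a mean below the filter. The 10 epithelial markers had a median of 0.07 and sums of 93121 and 99407, with Cdhr5 (0.40) and Krt20 (0.30) differing most. The part of these cell types in the class II differences was not tested.

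Of the markers of T cells, which read the presented peptides, 7 of 9 matched of 10 were lower, beside 42.4% of all genes measured. Their median was -0.28, with sums of 916 and 677. Only 4 of the 9 passed the filter, and these were all lower, with a median of -0.37, beside 46.1% of all genes kept. Cd3e read 7.57 for F/F against 7.37 for ΔIE and Cd4 6.35 and 6.34, while the largest differences were those of the dim Cd2 (6.03 and 4.75) and Cd5 (5.34 and 4.30). Markers of the position sampled also moved with the genotype, beside the same 42.4% of all genes measured below 0. All 8 posterior Hox genes were lower (median -1.46, sums 4241 and 884), with Hoxb13 at -2.83 and Hoxd13 at -2.82. Of 8 squamous epithelium markers matched of 9, 7 were lower (median -1.28, sums 23531 and 9161), with Krt5 at -1.36, Krt14 at -1.59, Krt13 at -1.71 and Trp63 at -1.55. The part of the sampled position in the class II differences was not tested.

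**Figure D3:**
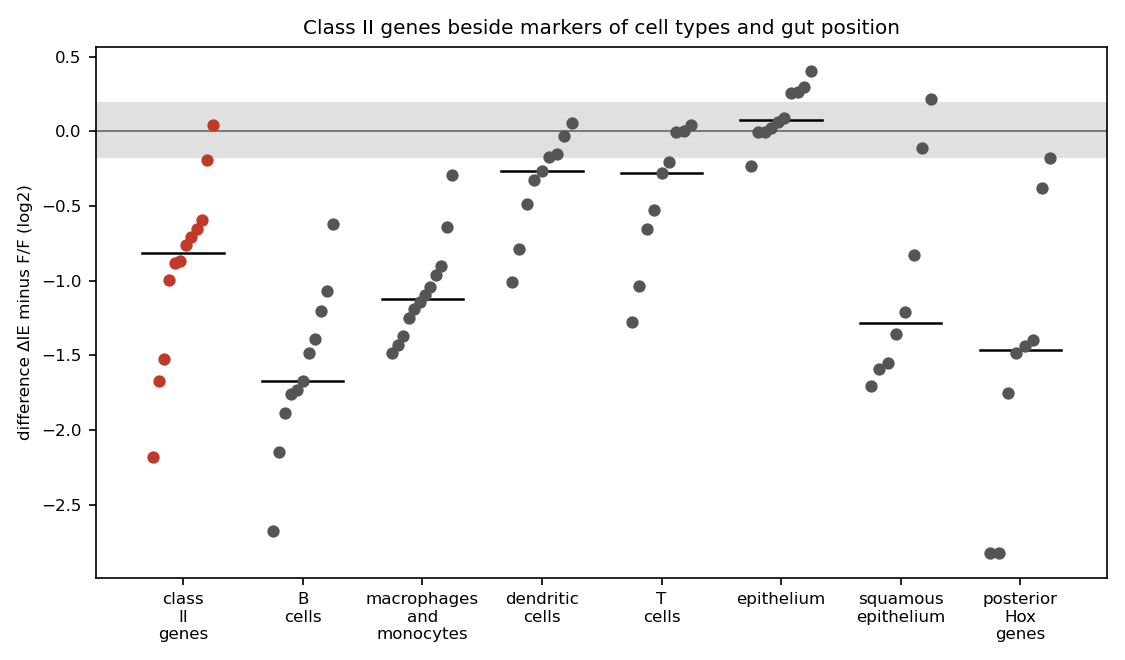
Difference between the arrays (ΔIE minus F/F, log2) of the 12 class II genes beside markers of cell types and gut position; each point is a gene, black lines are medians and the grey band runs between the quartiles of all genes kept (-0.17 and 0.19). The class II median of -0.82 lies between those of the dendritic cell (-0.27) and macrophage (-1.12) markers, and the epithelial markers centre at 0.07. Only 3 of the 9 dendritic cell markers passed the filter, so their median rests mostly on dim genes.

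By brightest probe sets, the class II loading genes H2-Ob, H2-Oa and H2-DMb2 differed by more than any chain gene. H2-DMa and Cd74 did not. H2-Ob, H2-Oa and H2-DMb2 were dimmer than H2-Aa, H2-Ab1 and H2-Eb1, and dimmer genes spread more widely. The middle 95% of genes kept lay between -1.45 and 0.78 at means of 6.11 to 8. It lay between -1.36 and 0.75 at 8 to 10, and between -1.03 and 0.72 at 10 to 12. The comparison was not adjusted for this spread. H2-Ob, the β chain of H2-O (DO), which restrains peptide exchange and is found mainly in B cells, read 8.29 for F/F against 6.11 for ΔIE, a 4.54-fold difference, with 0.233% of genes kept lower. A dim probe set that the platform pairs with an H2-O symbol and another symbol read 6.04 and 4.85. H2-Oa, the α chain of the same dimer, read 7.62 and 6.09, its ΔIE value lying under the filter. H2-DMb2, a β chain of the peptide exchanger H2-M (DM), read 9.00 and 7.33 (3.18-fold), and its 3 probe sets ran from -1.67 to -1.37. H2-DMa, the α chain of DM, differed by less, at 9.14 and 8.55 (1.51-fold). A dim second probe set of H2-DMa read 3.83 and 4.01, and averaged with it the gene differed by -0.20. The 2 probe sets paired with more than 1 H2-DM symbol differed by -0.71 and -0.65, less than those of H2-DMb2 alone. Cd74, the invariant chain that fills the groove until loading, read 12.48 and 11.72 (1.69-fold).

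Of the class II regulators, Ciita was lower while the promoter-binding factors lay on both sides of 0. Ciita, the coactivator that switches class II genes on, read 7.06 for F/F against 6.19 for ΔIE (1.83-fold), close to the filter of 6.11. Its 2 other probe sets differed by -0.97 and -0.80. They were dim too: the first read 6.96 and 6.00, and the other 6.21 and 5.41, with a mean below the filter. Rfx5, a subunit of the factor on the X box of class II promoters, read 8.40 and 8.21, a difference of -0.19. The 7 other genes of the class II promoter complex examined had a median of -0.01, with 4 below 0, 3 above and none at 2-fold. Among them Rfxank and Rfxap, the partners of Rfx5, differed by 0.26 and -0.01, and Nfya and Creb1 by -0.29 and -0.28. Ciita was thus lower beside its targets while these 7 genes ran from -0.29 to 0.26.

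Class II promoters carry an X box and a Y box that the Ciita complex reads, so the upstream stretches of the class II genes with the largest differences and of chain genes are shown. They are the 180 bases before the RefSeq start (GRCm38.p6), 5′ to 3′ in gene direction; capitals mark matches on either strand to the Y box core ATTGG, an X box core ACNGATG, the interferon element core AGTTTC and the κB core GGGGATT.
H2-Ob (chr17:34238725-34238904, plus strand): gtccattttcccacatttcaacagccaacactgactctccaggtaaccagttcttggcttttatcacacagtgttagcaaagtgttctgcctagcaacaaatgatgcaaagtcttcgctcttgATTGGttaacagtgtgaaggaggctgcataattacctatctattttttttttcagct
H2-DMb2 (chr17:34145069-34145248, plus strand): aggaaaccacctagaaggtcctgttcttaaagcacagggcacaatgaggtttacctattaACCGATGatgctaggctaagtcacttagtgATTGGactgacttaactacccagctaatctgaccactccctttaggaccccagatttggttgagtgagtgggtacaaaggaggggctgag
H2-Eb1 (chr17:34305687-34305866, plus strand): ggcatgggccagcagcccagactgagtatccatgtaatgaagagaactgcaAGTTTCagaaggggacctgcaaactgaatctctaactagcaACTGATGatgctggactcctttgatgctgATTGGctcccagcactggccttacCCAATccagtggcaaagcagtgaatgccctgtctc
H2-Aa (chr17:34287824-34288003, minus strand): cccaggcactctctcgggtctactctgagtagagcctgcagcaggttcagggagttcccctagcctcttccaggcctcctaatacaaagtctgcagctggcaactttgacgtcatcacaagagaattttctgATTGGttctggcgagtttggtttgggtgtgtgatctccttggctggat
Matches did not overlap. The stretches of H2-DMb2 and H2-Eb1 hold an X box core followed by a Y box core. In those of H2-Ob and H2-Aa the Y box core alone matched. ACNGATG is a strict spelling, so a stretch without it was not shown to lack an X box. H2-Aa has an ACNGATG match further upstream, on the other strand at -232 to -226. That match lies apart from its Y box core at -48 to -44. Searched over 250 upstream bases, ATTGG was present in 7 of 8 class II members searched, against 34.5% of all 27025 promoters. ACNGATG was present in 5 of 8, the distant H2-Aa match among them, against 8.28%. These 8 include the regulator gene Rfx5. Any member promoter on the chromosome that holds Cd74 was left out of this count, but not out of all promoters. ATTGG was also common in class I promoters, with 6 of 9 heavy chain and 5 of 6 loading genes. Not among the promoters searched were those of Cd1d1, Cd74, Cd86, Ciita, H2-Ab1, H2-Bl, H2-D4, H2-Ea, H2-Q5, H2-T18, H2-T24, Nlrc5, Tap2 and Tapbpl. A match describes letters and shows no binding.

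The classical class I heavy chains hardly differed by their brightest probe sets. H2-K1 read 13.84 for F/F against 13.82 for ΔIE, and H2-D1 13.72 and 13.55; H2-D4, a pseudogene, was dim at 4.11 and 4.15. These levels lie near the top of the scale, where large differences were rare on these arrays: of 121 genes with a mean of 13 or more, 1 was at least 2-fold lower and the middle 95% lay between -0.73 and 0.52. H2-K1 and H2-D1 were read by probe sets ending in _x_at, whose probes can match several transcripts, and class I heavy chains are near-identical copies. The only H2-D1 probe set above the filter without that mark read 9.27 and 8.67, a difference of -0.60, while the 4 with it lay between -0.20 and -0.08. Of the 4 H2-K1 probe sets, all marked, 3 lay between -0.15 and -0.03 and the dimmest read 7.06 and 7.34. The size of the classical class I difference thus varied with the probe set read.

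**Figure D4:**
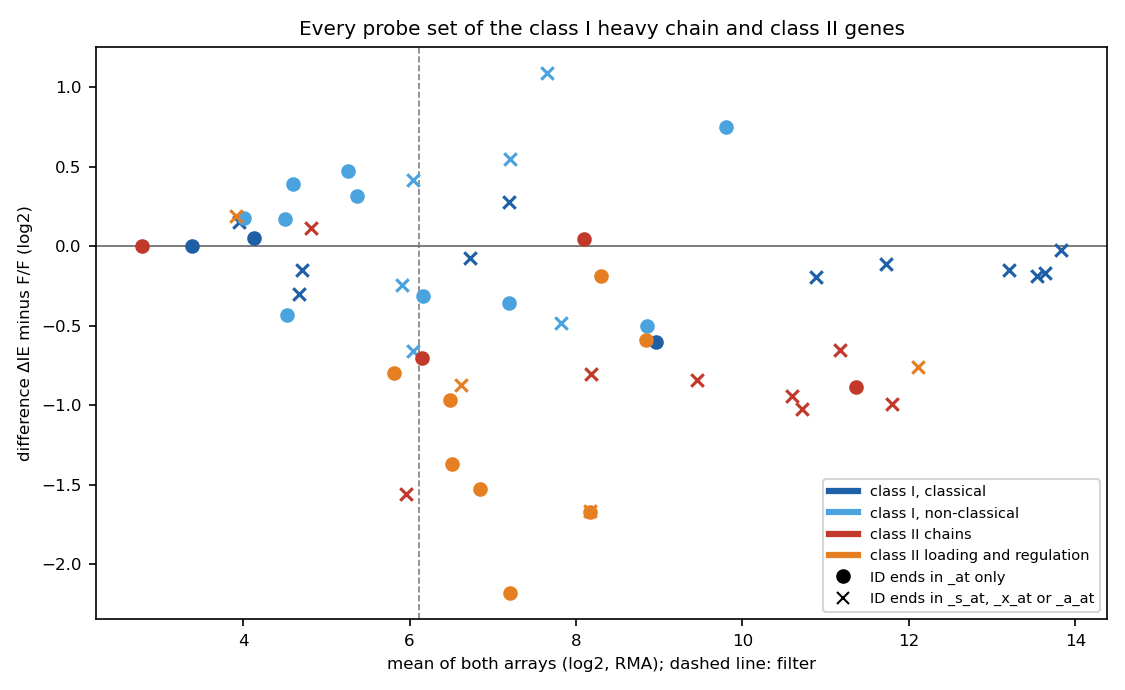
Difference between the arrays (ΔIE minus F/F, log2) of every probe set of the class I heavy chain and class II genes against its mean level; crosses are probe sets whose ID marks possible matches to several transcripts and the dashed line is the filter at 6.11. Above the filter the class II probe sets lie below 0 except 1 of H2-Ea at 0.04, while class I probe sets lie on both sides.

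The class I promoters are shown for the classical pair and for H2-T3, the member with the largest positive difference, with the same capitals.
H2-K1 (chr17:34000348-34000527, minus strand): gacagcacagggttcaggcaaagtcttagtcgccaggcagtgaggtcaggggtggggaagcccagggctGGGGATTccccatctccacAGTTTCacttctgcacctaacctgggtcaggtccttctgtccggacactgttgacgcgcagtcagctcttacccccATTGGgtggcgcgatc
H2-D1 (chr17:35262914-35263093, plus strand): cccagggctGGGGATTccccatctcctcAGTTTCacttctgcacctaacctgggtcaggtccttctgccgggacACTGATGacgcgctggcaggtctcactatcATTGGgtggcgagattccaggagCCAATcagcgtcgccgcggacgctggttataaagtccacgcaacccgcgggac
H2-T3 (chr17:36190152-36190331, minus strand): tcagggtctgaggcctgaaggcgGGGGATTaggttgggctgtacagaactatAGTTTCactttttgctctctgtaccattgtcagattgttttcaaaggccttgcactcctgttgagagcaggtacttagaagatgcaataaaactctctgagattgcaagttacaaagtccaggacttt
All 3 stretches hold the κB core shortly before an interferon element core. Over 250 upstream bases, AGTTTC was present in 7 of 9 class I heavy chain members with a listed promoter, against 2 of 8 class II members and 13.7% of all promoters, and GGGGATT in 4 of 9 against 2.78%. An X box core was present in 3 of these 9 and in 0 of 6 promoters of the class I loading genes.

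Non-classical class I genes went both ways. H2-T3, the thymus leukaemia antigen, which gut epithelium is known to express and which binds CD8αα, read 7.11 for F/F against 8.20 for ΔIE (2.13-fold higher). That probe set is marked _x_at; the unmarked one read 5.22 and 5.53, below the filter on both arrays. A probe set paired with 2 H2-T symbols read 6.08 and 7.24, and H2-T18, a near copy of H2-T3, read 5.83 and 6.25. H2-Q2 read 9.43 and 10.18 (1.68-fold), with 2.50% of genes kept higher, and H2-Q10, best known as a liver product, 6.94 and 7.49. Every probe set of single symbol for H2-T3, H2-T18, H2-Q2 and H2-Q10 was thus higher on the ΔIE array. The H2-T18 probe set is also marked _x_at and has a mean below the filter. Whether it reads a transcript apart from that of H2-T3 was not tested.

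Other non-classical genes were lower. H2-M3, which presents formylated bacterial peptides, read 9.10 for F/F against 8.60 for ΔIE. Cd1d1, which presents lipids to NKT cells, read 8.06 and 7.57, and its other probe set 7.37 and 7.01. Mr1, which presents vitamin metabolites to MAIT cells, read 6.37 and 5.71, with a mean below the filter. H2-Q5, a pseudogene, read 6.32 and 6.00. The dim genes H2-T24, H2-M9, H2-M10.1 and H2-Bl all had means under 5.3 and differed by -0.43, 0.17, 0.39 and 0.47. The 12 non-classical genes had a median of 0.28, and the 6 of them kept a median of 0.12. With the probe sets of each gene averaged the median of those kept was 0.55, and without probe sets marked _s_at, _x_at or _a_at it was -0.34, so that its sign depended on the probe sets read.

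Probe sets that the platform pairs with several symbols were assigned to no gene, and 15 of them carry at least 1 member symbol. Some lie among the brighter class I signals. Of the H2-Q probe sets, 2 that are each paired with 2 H2-Q genes read 11.07 for F/F against 10.07 for ΔIE and 10.18 and 9.24, and another, paired with 3 H2-Q genes, 7.78 and 7.11. These 3 differed by -0.99 to -0.67, opposite in sign to H2-Q2 and H2-Q10. The brightest H2-T probe set, paired with 2 symbols, read 11.82 and 12.28, whereas another, paired with 3 other H2-T genes, read 10.64 and 10.28. The H2-Q and H2-T families therefore each held probe sets above and below 0.

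Most of the shared class I machinery lay near 0, apart from the transporter genes and Nlrc5. B2m, the light chain of every class I molecule, read 13.40 for F/F against 13.47 for ΔIE. The chaperone genes Calr (0.05), Pdia3 (0.10) and Tapbp (-0.02), the tapasin-related editor Tapbpl (-0.09) and the peptide-trimming protease Erap1 (0.20) ran from -0.09 to 0.20. The peptide transporter subunits were lower, with Tap1 at 9.18 and 8.74 and Tap2 at 8.46 and 8.13. The 3 dim further probe sets of Tap1 lay near 0, and averaged with them Tap1 differed by -0.07. Nlrc5, the class I counterpart of Ciita, read 8.67 and 7.79 (1.84-fold), a difference close to that of Ciita (-0.88 and -0.87). The 9 genes together had a median of -0.02.

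By the RefSeq gene table (GRCm38.p6), 24 of the 39 members lie in the H2 region of chromosome 17, taken from Tapbp to H2-M3. Tap1 and Tap2, with the immunoproteasome genes Psmb9 and Psmb8, sit between H2-DMb2 and H2-Ob. Along this stretch the differences ran from -1.67 (H2-DMb2) through -0.04 (Psmb9), -0.44 (Tap1), -0.18 (Psmb8) and -0.33 (Tap2) to -2.18 (H2-Ob). The class I genes embedded among the class II genes thus differed less than H2-DMb2 and H2-Ob, the members on both sides in this order. H2-DMb1, which has no probe set of single symbol, is not in the order, and neither are the members H2-D4 and H2-T18. The probe sets that the platform pairs with both H2-DMb2 and H2-DMb1 differed by -0.71 and -0.65. H2-Ke6, which follows H2-K1 in this order and encodes a steroid dehydrogenase, was higher (8.11 and 8.59).

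**Figure D5:**
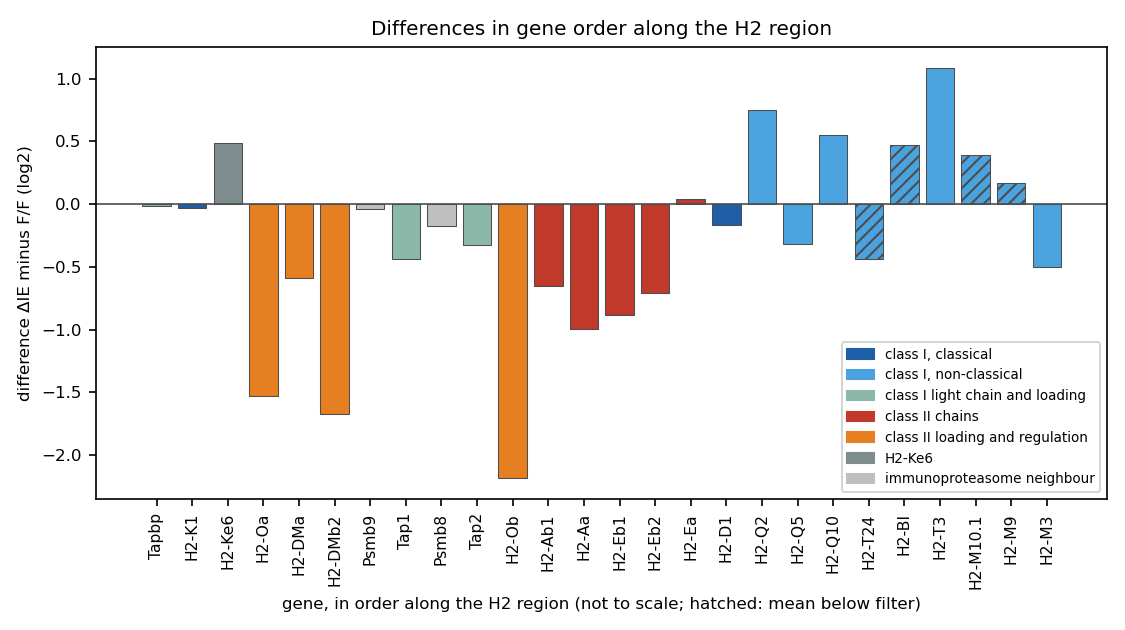
Difference between the arrays (ΔIE minus F/F, log2) of members and 2 immunoproteasome neighbours in their order along the H2 region (order only, not to scale); hatched bars have a mean below the filter. The bars of Psmb9, Tap1, Psmb8 and Tap2 (-0.44 to -0.04) stand between those of H2-DMb2 (-1.67) and H2-Ob (-2.18).

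Co-stimulation is the signal that T cells need beside the peptide. Cd86 read 7.52 for F/F against 6.38 for ΔIE (2.20-fold lower), and its dimmer probe set 5.90 and 4.57. Cd80 was dim, at 4.90 and 4.85, and its 4 probe sets ran from -0.63 to 0.21. Of 12 other co-stimulatory and checkpoint genes 10 were below 0, where 42.4% of all genes measured were, with a median of -0.62. Only 7 of the 12 passed the filter. All 7 were below 0, beside 46.1% of all genes kept, with a median of -0.63. Of the 12, 1 was at least 2-fold lower, where 3.72% of all genes measured were. That was Icos (8.26 and 6.81), a receptor of activated T cells. Cd40, the receptor through which T cells license antigen-presenting cells, read 6.37 and 5.46, and Ctla4 6.44 and 5.60, both with means below the filter. The markers of B cells (-1.67) and macrophages (-1.12), which carry Cd86 and Cd40, were lower on the same arrays; their part was not tested.

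Further steps of both pathways were compared by list. Of 8 endosomal class II genes matched of 9, all were lower, where 42.4% of all genes measured were below 0, with a median of -0.20. Marchf1, the ubiquitin ligase that removes class II and Cd86 from the surface, read 7.15 for F/F against 5.89 for ΔIE, with its ΔIE value under the filter. It was the only one past 2-fold, where 3.72% of all genes measured were at least 2-fold lower. The cathepsin genes Ctsl (-0.44) and Ctsd (-0.29) followed, and Ctss, the protease that trims the invariant chain, differed by -0.22. The immunoproteasome and PA28 genes that supply class I peptides, 4 matched of 5, had a median of 0.03, with Psmb10 at 0.29, Psmb8 at -0.18 and Psme1 at 0.10. The 6 class I folding genes had a median of 0.07, with Ganab at 0.30, Hspa5 at -0.20 and P4hb at 0.08. Interferon signalling genes, which drive both Ciita and Nlrc5, were 10 matched of 11: 9 were below 0 and none past 2-fold, beside 42.4% and 3.72% of all genes measured, with a median of -0.17. Ifng itself was dim, at 4.81 and 4.09, and Ifnar2 (-0.52) and Jak1 (-0.34) had the next largest differences. Peptide supply and folding thus centred near 0, as the class I light chain did.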

How the data were processed

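Expression was measured on 2 arrays, 1 per genotype, grouped by the genotype label. The deposited values are log2 expression of 45101 probe sets, which the authors made with affy and RMA, per the submitters' processing notes; versions were not given in the sources used here. RMA sets the arrays' distributions equal, compresses dim and very bright differences and gives no detection call. The number of arrays limits the precision. Symbols came from the platform annotation, by which 34958 probe sets have 1 symbol; 64 control probe sets were left out. A gene took its probe set of highest mean, and was kept where that mean reached 6.11, the median over probe sets; a filter on the higher array, which favours genes that differ, was an alternative. No test was run. Every member was to be named, with list members past 2-fold or of largest difference. Of 121 listed genes, 114 matched a symbol or synonym. The members and lists were chosen with earlier results of these data known. Promoters came from RefSeq (GRCm38.p6), the first listed per gene. The 25 members searched exclude any on the chromosome that holds Cd74. The counting step was tested on simulated data. Python 3.11.15, pandas 2.3.3, statsmodels 0.14.6 and matplotlib 3.10.9 were used.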

Additional observations from a re-analysis of the deposited data

How the results depend on the processing

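Alternatives took all probe sets of a gene averaged, dropped those marked _x_at alone or also _s_at and _a_at, and used other filters, median centring, a lowess correction (span 0.3), other thresholds and means over members. A median was taken to have moved where it shifted by over 0.39, the 95th percentile of the gap between a gene's 2 brightest probe sets. This gap was taken within the same 2 arrays, so it holds no spread between replicates. It describes single genes, and smaller shifts of a median were not called moved. The class II median stayed between -0.92 and -0.71 under the alternatives for which it was recorded. It was not recorded with _x_at probe sets alone dropped. Class II minus class I was -0.79 in the main setting. It lay between -0.90 and -0.57 under the alternatives, dropping _x_at probe sets alone included. The class I median itself, recorded under the same alternatives as the class II median, ran from -0.31 to 0.03. With probe sets averaged, the non-classical median was 0.55 in place of 0.12, and class II minus non-classical -1.43 in place of -0.93; without _x_at probe sets the latter was -0.50. Without marked probe sets the classical median was -0.60, which is H2-D1 alone, the non-classical median -0.34, turned in sign, and H2-T3 differed by 0.31. Without a filter the co-stimulation median was -0.59 in place of -1.14. The count of members at least 2-fold lower, 4, was 0 with the filter at the 75th percentile, 5 with the lowess correction, under which H2-Aa differed by -1.06, 12 at 1.5-fold and 2 at 3-fold. The count higher, 1, was 0 with probe sets averaged, without marked probe sets, with the filter at the 75th percentile and at 3-fold, and 2 at 1.5-fold. No paired analysis was possible because each genotype has 1 array.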
